A study of Mus musculus with 18 samples.

Results

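The genes described here are 8 members of the mouse cholesterol synthesis programme: Srebf2 and Insig1, which regulate it, and Hmgcs1, Idi1, Fdft1, Sqle, Lss and Cyp51, which encode enzymes of the pathway. They were chosen by symbol, and all 8 were found among the 47729 genes of the count table. The study asked how claudin-2, a pore-forming protein of epithelial tight junctions, bears on colitis-associated cancer (CAC) of the colon. RNA-seq was carried out on colon of 9 mice in 3 groups of 3. The naive WT group (mice 1 to 3) had the WT genotype and is labelled Control for treatment, although the deposited protocol text names AOM and DSS for every sample. The WT CAC group (mice 4 to 6) had the WT genotype and received AOM, a carcinogen that acts on the colon, once at 10 mg/kg, followed by 3 cycles of 2.5% DSS, which injures the colonic epithelium. The Cldn2TG CAC group (mice 7 to 9) received the same AOM/DSS treatment and carried a Cldn2 transgene driven by the villin promoter, which is active in intestinal epithelium. There was no naive Cldn2TG group, so that Cldn2TG CAC and naive WT mice differed in both genotype and treatment. The study's methods describe mice matched for age and sex on a C57BL/6 background, with littermates as controls, and the labels give no age or sex.

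Cells make cholesterol from acetyl-CoA through HMG-CoA, mevalonate, isoprenoid units, squalene and lanosterol. The transcription factor SREBP-2, encoded by Srebf2, is made as a precursor in the membrane of the endoplasmic reticulum. When sterols are scarce, the escort protein SCAP carries it to the Golgi, where proteases release the active part. INSIG proteins hold the complex back when sterols are plentiful, and Insig1 is itself a target of SREBP-2. In the colon the pathway serves the membranes of a quickly renewing epithelium. Messenger levels report neither the cleavage of SREBP-2 nor the amount of sterol.

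The libraries held 14142711 to 22262546 counts per mouse, and the members had between 342 and 12049 counts in each mouse, so that counting error was small beside the spread between mice. Levels are given as CPM, that is read counts scaled to a common library size with TMM factors. Cldn2 itself was at 191 to 259 CPM in naive WT, 119 to 137 CPM in WT CAC and 208 to 251 CPM in Cldn2TG CAC mice, so that the transgenic mice lay above treated WT mice and within the range of naive WT mice. Xist, expressed in females, was at 214 CPM in mouse 1 of the naive WT group and at 0.203 CPM or less in the other 8, so that the naive WT group was not of one sex in these data. The 10 epithelial markers summed to between 16522 and 22331 CPM in all 9 mice. Leukocyte markers summed to 46.8 to 100 CPM in naive WT, 129 to 234 CPM in WT CAC and 25.7 to 55.5 CPM in Cldn2TG CAC mice. Fewer cells of a type and less RNA per cell cannot be told apart in these bulk samples.

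SREBP-2 is known to act through sterol regulatory elements in promoters, usually together with NF-Y, which binds CCAAT, and Sp1, which binds GGGCGG. The promoters of Srebf2 and Hmgcs1 are shown because they hold the letters TCACNCCA, a core of the sterol regulatory element. That of Insig1 is shown because it is the member with the largest estimated difference between groups. Each run covers the 250 bases before the RefSeq start (GRCm38.p6), 5′ to 3′ on the gene's strand, which is the + strand for all 3. Capitals mark TCACNCCA, CCAAT and GGGCGG on either strand. The windows are chr15:82147019-82147268 for Srebf2, chr13:119690101-119690350 for Hmgcs1 and chr5:28071162-28071411 for Insig1.
Srebf2: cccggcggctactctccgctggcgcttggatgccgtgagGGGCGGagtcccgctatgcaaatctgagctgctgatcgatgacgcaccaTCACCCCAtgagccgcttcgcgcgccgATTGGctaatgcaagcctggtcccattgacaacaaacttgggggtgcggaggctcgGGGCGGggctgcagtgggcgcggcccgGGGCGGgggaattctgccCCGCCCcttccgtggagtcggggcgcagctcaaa
Hmgcs1: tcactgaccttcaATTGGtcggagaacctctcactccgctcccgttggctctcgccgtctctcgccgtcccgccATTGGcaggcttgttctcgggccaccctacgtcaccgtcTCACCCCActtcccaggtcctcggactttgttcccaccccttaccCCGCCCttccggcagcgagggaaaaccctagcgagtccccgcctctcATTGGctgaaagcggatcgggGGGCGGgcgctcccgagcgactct
Insig1: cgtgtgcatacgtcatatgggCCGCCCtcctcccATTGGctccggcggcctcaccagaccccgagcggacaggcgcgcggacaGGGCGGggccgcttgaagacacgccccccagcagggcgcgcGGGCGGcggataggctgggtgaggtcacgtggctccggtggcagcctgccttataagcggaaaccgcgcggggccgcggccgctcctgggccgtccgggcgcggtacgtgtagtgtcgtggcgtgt

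RefSeq windows of 300 bases, from 250 before to 50 after the start, were at hand for 6 of the 8 members (Srebf2, Insig1, Hmgcs1, Idi1, Lss and Cyp51) and were searched on both strands. CCAAT was present in 6 of 6 and in 37.4% of all 32851 promoter windows. GGGCGG was likewise present in 6 of 6, against 35.7% of all windows. The longer sterol element core TCACNCCAC was present in Hmgcs1 alone, against 1.24% of all windows. The shorter TCACNCCA, chosen after the first search, was present in Srebf2 and Hmgcs1, against 4.36% of all windows. Of the marked runs in the 6 member windows, 0 overlapped each other. Among 13 other enzymes of the pathway with a window, 11 had CCAAT, 12 had GGGCGG and 1, Msmo1, had TCACNCCA. A match describes letters and not a bound site.

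Per kilobase of counted gene length, which allows levels of different genes to be compared, Hmgcs1 was the most abundant member, at 132 ± 29.9 CPM per kilobase in naive WT mice (SD, n = 3). Srebf2 followed at 63.3 ± 3.30, Fdft1 at 49.3 ± 8.52, Cyp51 at 48.7 ± 11.9, Sqle at 35.6 ± 7.45 and Insig1 at 33.5 ± 4.79 CPM per kilobase in the same mice. Idi1 and Lss were lowest, at 8.08 ± 1.97 and 5.0 ± 1.83 CPM per kilobase. Fdft1 and Cyp51, and likewise Sqle and Insig1, differed by less than their spread between mice. The counted length of Lss, 10787 bases, was the longest among the members and lowers its value on this scale.

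None of the 8 members differed between groups past the threshold in any of the 3 comparisons. With edgeR's quasi-likelihood test and a Benjamini-Hochberg adjusted p under 0.05 over all genes tested, 0 of 8 members were called in Cldn2TG CAC versus WT CAC, where 9.54% of 14888 genes were called. In WT CAC versus naive WT, 0 of 8 were called against 15.0% of 15437 genes, and in Cldn2TG CAC versus naive WT 0 of 8 against 10.0% of 15013 genes. At an unadjusted p under 0.05, 2 members passed in Cldn2TG CAC versus WT CAC (background 23.5% of genes), 0 in WT CAC versus naive WT (32.6%) and 0 in Cldn2TG CAC versus naive WT (26.0%). DESeq2 and limma voom each called 0 members in all 3 comparisons. The comparisons share mice: each group enters 2 of the 3. The groups of mice did not overlap for 1 member in Cldn2TG CAC versus WT CAC, where this held for 28.5% of all genes, and for 0 members in the other comparisons, where it held for 38.0% and 31.2%.

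**Figure D1:**
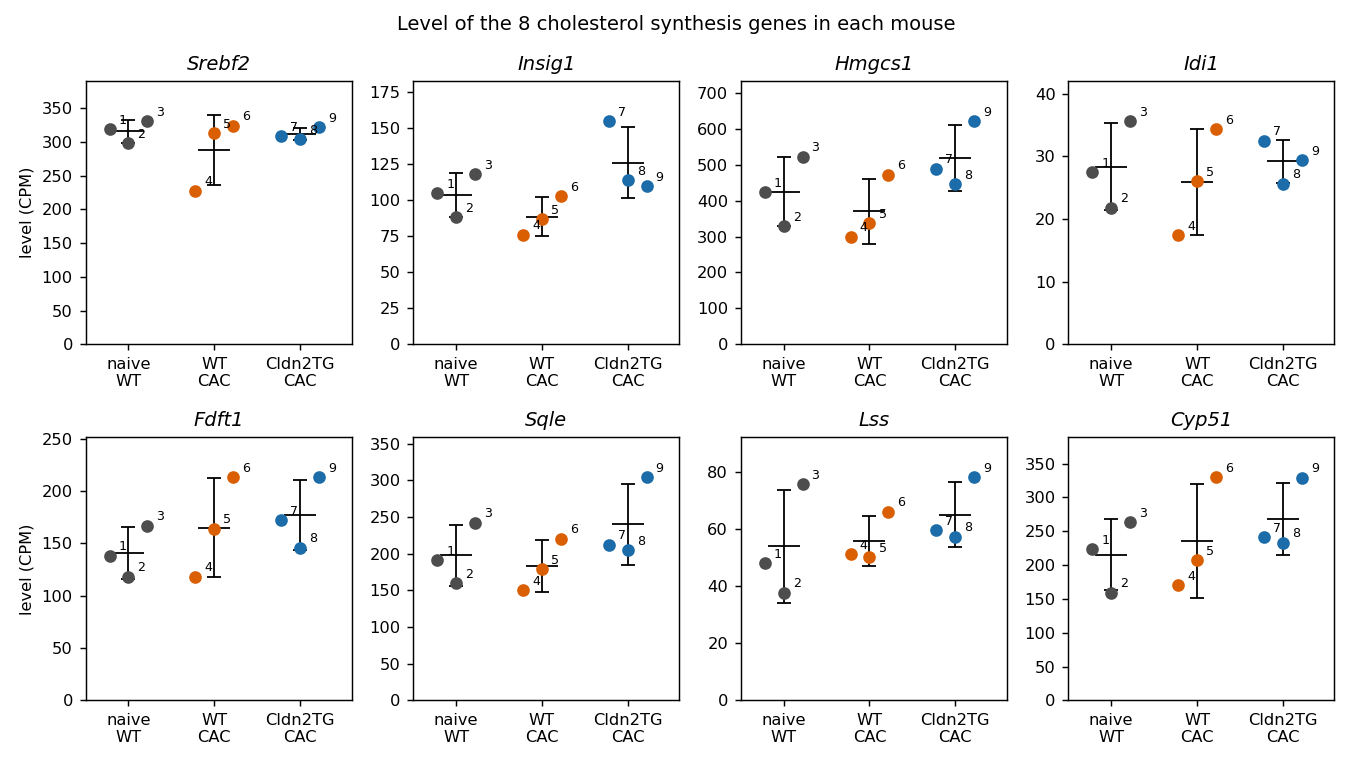
Level in CPM (y axis, from 0) of each of the 8 members in the 3 groups (x axis). Points are mice, labelled 1 to 9, and black bars are the group mean with its SD (n = 3). The groups overlap for every member except Insig1 between WT CAC and Cldn2TG CAC.

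Among the regulators, Srebf2 was at 319, 298 and 331 CPM in naive WT mice 1, 2 and 3, at 228, 313 and 324 CPM in WT CAC mice 4, 5 and 6, and at 309, 304 and 322 CPM in Cldn2TG CAC mice 7, 8 and 9. Mouse 4 was low and the other 8 mice lay close together. The log2 fold change of Srebf2 was 0.09 ± 0.15 (SE; adjusted p = 0.805, edgeR) in Cldn2TG CAC versus WT CAC, with a 95% confidence interval of the fold from 0.840 to 1.35. It was -0.11 ± 0.15 (adjusted p = 0.661) in WT CAC and -0.01 ± 0.09 (adjusted p = 0.944) in Cldn2TG CAC, each versus naive WT by the same test. The annotated span of Srebf2 (chr15:82147266-82205376, + strand, GRCm38) also holds Mir33, a microRNA gene on the same strand.

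Insig1, the sterol sensor that retains SCAP, had the largest estimated difference of the members, closely followed by Hmgcs1 (log2 fold change 0.49 and 0.47 in Cldn2TG CAC versus WT CAC). With 1 mouse left out, Insig1 ranged from 0.32 to 0.63 and Hmgcs1 from 0.33 to 0.70, so that their order was not stable. Insig1 was at 105, 88.1 and 118 CPM in naive WT mice, at 76.1, 86.8 and 103 CPM in WT CAC mice and at 155, 114 and 109.8 CPM in Cldn2TG CAC mice. All 3 Cldn2TG CAC mice lay above all 3 WT CAC mice, and mouse 7 stood above the other 8. Insig1 was 1.40-fold higher in Cldn2TG CAC than in WT CAC mice (95% confidence interval 1.06 to 1.84, log2 fold change 0.49 ± 0.17 SE, n = 3 per group), with an unadjusted p of 0.0218 and an adjusted p of 0.126 by edgeR. An exact permutation test, 2-sided, gave p = 0.1, the smallest value that 3 against 3 mice allow. Against naive WT the log2 fold change of Insig1 was -0.20 ± 0.15 in WT CAC (adjusted p = 0.411, edgeR) and 0.29 ± 0.15 in Cldn2TG CAC (adjusted p = 0.262). The gene lies at chr5:28071363-28078662 on the + strand and no other annotated gene lies in its span.

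Hmgcs1, the cytosolic synthase that makes HMG-CoA, was at 424, 329.9 and 523 CPM in naive WT mice, at 300.2, 338 and 473 CPM in WT CAC mice and at 489, 447 and 622 CPM in Cldn2TG CAC mice. WT CAC mouse 6 lay above Cldn2TG CAC mouse 8, so that these groups overlapped. The log2 fold change was 0.47 ± 0.20 (SE) in Cldn2TG CAC versus WT CAC, with an unadjusted p of 0.0455 and an adjusted p of 0.201 by edgeR. It was -0.17 ± 0.22 in WT CAC (adjusted p = 0.620) and 0.29 ± 0.18 in Cldn2TG CAC (adjusted p = 0.337), each versus naive WT.

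Idi1, which isomerises isopentenyl diphosphate, was at 27.5, 21.8 and 35.6 CPM in naive WT mice, at 17.4, 26.0 and 34.3 CPM in WT CAC mice and at 32.5, 25.6 and 29.4 CPM in Cldn2TG CAC mice. The highest and lowest values of all 9 mice were in naive WT mouse 3 and WT CAC mouse 4, and all 3 groups overlapped. Its log2 fold changes were 0.15 ± 0.23 in Cldn2TG CAC versus WT CAC (adjusted p = 0.782, edgeR), -0.11 ± 0.27 in WT CAC versus naive WT (adjusted p = 0.819) and 0.05 ± 0.17 in Cldn2TG CAC versus naive WT (adjusted p = 0.895).

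Fdft1 encodes squalene synthase, the first enzyme committed to sterols. It was at 138, 118 and 167 CPM in naive WT mice, at 118, 164 and 213 CPM in WT CAC mice and at 172, 146 and 213 CPM in Cldn2TG CAC mice. Mouse 2 and mouse 4 were lowest, and mice 6 and 9 were highest. Its log2 fold changes were 0.08 ± 0.23 in Cldn2TG CAC versus WT CAC (adjusted p = 0.900, edgeR), 0.25 ± 0.22 in WT CAC versus naive WT (adjusted p = 0.469) and 0.33 ± 0.16 in Cldn2TG CAC versus naive WT (adjusted p = 0.220). Fdft1 (chr14:63145153-63177793, - strand) shares annotated span with Ctsb on the opposite strand, and the strand setting of the counting is not given in the sources used here. Ctsb was at 625 to 795 CPM, and its log2 fold changes lay between -0.06 and 0.05.

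Sqle, the squalene epoxidase and a rate-limiting enzyme of the later pathway, was at 191, 160.0 and 242 CPM in naive WT mice, at 150.4, 179 and 220.2 CPM in WT CAC mice and at 212, 205 and 304 CPM in Cldn2TG CAC mice. Cldn2TG CAC mouse 9 was highest of all 9 mice. Its log2 fold change was 0.37 ± 0.20 in Cldn2TG CAC versus WT CAC (adjusted p = 0.311, edgeR), with a 95% confidence interval of the fold from 0.949 to 1.76. Versus naive WT it was -0.08 ± 0.19 in WT CAC (adjusted p = 0.795) and 0.29 ± 0.19 in Cldn2TG CAC (adjusted p = 0.377).

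Lss, which closes squalene epoxide into lanosterol, was at 48.2, 37.8 and 75.9 CPM in naive WT mice, at 51.2, 50.3 and 66.2 CPM in WT CAC mice and at 59.7, 57.4 and 78.2 CPM in Cldn2TG CAC mice. Naive WT mice spread over a 2.01-fold range, wider than the difference between any 2 groups. Its log2 fold changes were 0.20 ± 0.17 in Cldn2TG CAC versus WT CAC (adjusted p = 0.567, edgeR), 0.08 ± 0.25 in WT CAC versus naive WT (adjusted p = 0.861) and 0.27 ± 0.26 in Cldn2TG CAC versus naive WT (adjusted p = 0.554).

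Cyp51, the lanosterol demethylase, was at 223, 159 and 263 CPM in naive WT mice, at 169.9, 207 and 329.5 CPM in WT CAC mice and at 241, 233 and 329 CPM in Cldn2TG CAC mice. Mice 6 and 9 were highest and nearly equal, although they belong to different groups. Its log2 fold changes were 0.16 ± 0.25 in Cldn2TG CAC versus WT CAC (adjusted p = 0.789, edgeR), 0.16 ± 0.28 in WT CAC versus naive WT (adjusted p = 0.726) and 0.32 ± 0.20 in Cldn2TG CAC versus naive WT (adjusted p = 0.350). Cyp51 (chr5:4081145-4104746, - strand) shares annotated span with Akap9 on the opposite strand, which was at 90.0 to 157 CPM and had a log2 fold change of 0.40 ± 0.15 in Cldn2TG CAC versus WT CAC (adjusted p = 0.146, edgeR).

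**Figure D2:**
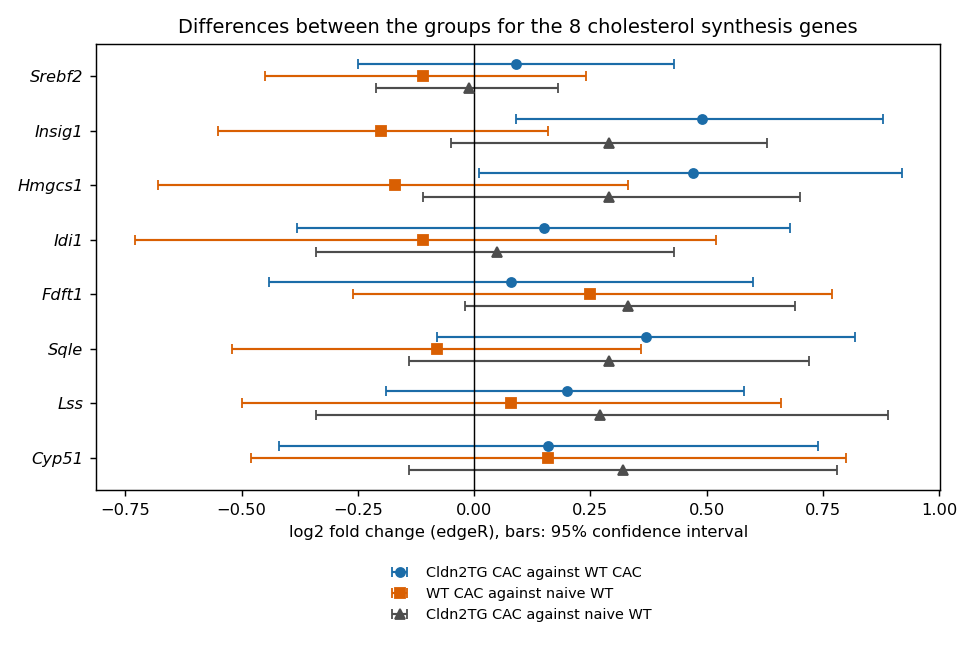
Log2 fold change (x axis) of each member (y axis) in the 3 comparisons, from edgeR, with bars for the 95% confidence interval. Intervals cross 0 except those of Insig1 and Hmgcs1 in Cldn2TG CAC versus WT CAC, and neither of these passed after adjustment over all genes.

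In Cldn2TG CAC versus WT CAC, 8 of 8 members had a positive log2 fold change with a median of 0.18, beside 0.008 over all genes, but with no scaling beyond library size Srebf2 was at -0.01 and Fdft1 at -0.03. The positive signs also rested on WT CAC mouse 4. Without this mouse Srebf2 was at -0.04, Idi1 at -0.06, Fdft1 at -0.10 and Cyp51 at -0.02, while Insig1 was at 0.40, Hmgcs1 at 0.35, Sqle at 0.26 and Lss at 0.15 on the log2 scale. In WT CAC versus naive WT, 5 members had negative and 3 positive values (median -0.09, all genes 0.021). In Cldn2TG CAC versus naive WT, 7 members had positive values and 1 a negative value (median 0.29, all genes 0.002), with Idi1 turning to -0.07 under library size alone. In that last comparison the fit without a filter on low counts called 2 members, Fdft1 (log2 fold change 0.33, adjusted p = 0.0332) and Cyp51 (0.32, adjusted p = 0.0440), against 9.91% of 25909 genes. Over the 3 comparisons the 95% confidence intervals of the members' folds reached no lower than 0.604 and no higher than 1.89.

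Every member except Insig1 had more of its variance between mice of a group than between groups, and the members tended to vary together. The share of variance in log2 CPM that lay between the 3 groups was 8.78% for Idi1, 53.0% for Insig1 and 19.2% in the median over the 8 members, beside a median of 46.9% over 10872 genes with a mean of at least 5 CPM. Within naive WT, mouse 2 was lowest for 8 of 8 members and mouse 3 highest for 8 of 8, beside 30.2% and 31.0% of all genes. Within WT CAC, mouse 4 was lowest for 7 members and mouse 6 highest for 8, beside 43.3% and 30.7% of all genes. Within Cldn2TG CAC, mouse 8 was lowest for 7 members and mouse 9 highest for 6, beside 28.6% and 36.4% of all genes. The mean standardised log2 CPM of the members was -0.16, -1.09 and 0.77 in naive WT mice 1, 2 and 3, -1.49, -0.40 and 0.72 in WT CAC mice 4, 5 and 6, and 0.54, 0.01 and 1.09 in Cldn2TG CAC mice 7, 8 and 9.

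Of the 28 pairs of members, 20 had a Pearson exact permutation p under 0.05 over the 9 mice after Benjamini-Hochberg adjustment over the pairs, and 21 a Spearman exact p. The share of all pairs of genes that would pass was not computed, so these counts have no background. The permutations also moved mice between groups. Among the 6 enzymes, r ranged from 0.67 to 0.97 over 15 pairs with a median of 0.84. Pairs with Srebf2 or Insig1 ranged lower, from 0.38 to 0.86 over 13 pairs with a median of 0.64. Hmgcs1 and Sqle were the closest pair, with r = 0.97 (exact permutation p = 5.51e-06, adjusted 0.000154) and rho = 0.98 (exact p = 4.96e-05, adjusted 0.00139), and without the 2 mice farthest from the median of Hmgcs1 r was 0.95. Srebf2 and Lss had the lowest Pearson r, 0.38 (exact permutation p = 0.314, adjusted 0.314), with rho = 0.63 (exact p = 0.0760, adjusted 0.0887), and without the 2 mice farthest from the median of Srebf2 r was 0.69. Srebf2 and Insig1 had the lowest rho, 0.42 (exact permutation p = 0.270, adjusted 0.270), with r = 0.58 (exact p = 0.145, adjusted 0.162), which fell to 0.04 without the 2 mice farthest from the median of Srebf2. Over all pairs, r without the 2 farthest mice ranged from 0.58 to 0.98 among the enzymes and from 0.04 to 0.84 in pairs with Srebf2 or Insig1. After removal of each group's mean, r ranged from 0.71 to 0.98 among the enzymes and from 0.37 to 0.86 in pairs with Srebf2 or Insig1. The points are 9 libraries, each of which gives the values of all members, and they also differ in depth and in the sums of cell type markers. The smallest libraries, with 14142711, 14900807 and 14871987 counts, were those of WT CAC mouse 6 and Cldn2TG CAC mice 7 and 9. Their mean standardised log2 CPM of the members was high, at 0.72, 0.54 and 1.09. Naive WT mouse 3, at 0.77, had 22103851 counts. The part of depth in the members' levels was not tested.

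Sums of cell type markers also differed between mice of a group. The 8 adipocyte markers summed to 168 CPM in naive WT mouse 2 and 119 CPM in Cldn2TG CAC mouse 8, the mice lowest in most members of their groups, and to between 17.4 and 47.0 CPM in the other 7 mice. But WT CAC mouse 4, likewise lowest in most members of its group, was at 24.1 CPM, between mice 6 and 5 at 17.4 and 47.0 CPM. Smooth muscle markers summed to 3031 CPM in WT CAC mouse 4, and to 1106 and 1325 CPM in mice 5 and 6, but in naive WT the lowest sum, 2095 CPM, was in mouse 2, against 4169 and 3118 CPM in mice 1 and 3. In Cldn2TG CAC mice they summed to 1016 to 1558 CPM. Crypt proliferation markers summed to 724 CPM in naive WT mouse 3 and 559.6 CPM in WT CAC mouse 6, the highest of their groups, but to 436 CPM in Cldn2TG CAC mouse 9, the lowest of its group. The part of any of these in the members' levels was not tested. By group, goblet cell markers summed to 14353 to 16529 CPM in naive WT, 9882 to 14074 CPM in WT CAC and 12440.5 to 20500.4 CPM in Cldn2TG CAC mice. Fibroblast markers summed to 377 to 535, 575 to 1290.0 and 238 to 307 CPM, endothelial markers to 33.4 to 42.4, 34.6 to 44.9 and 20.5 to 23.9 CPM, and neuron and glia markers to 30.6 to 48.9, 25.3 to 41.5 and 11.1 to 16.2 CPM in the same order of groups.

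**Figure D3:**
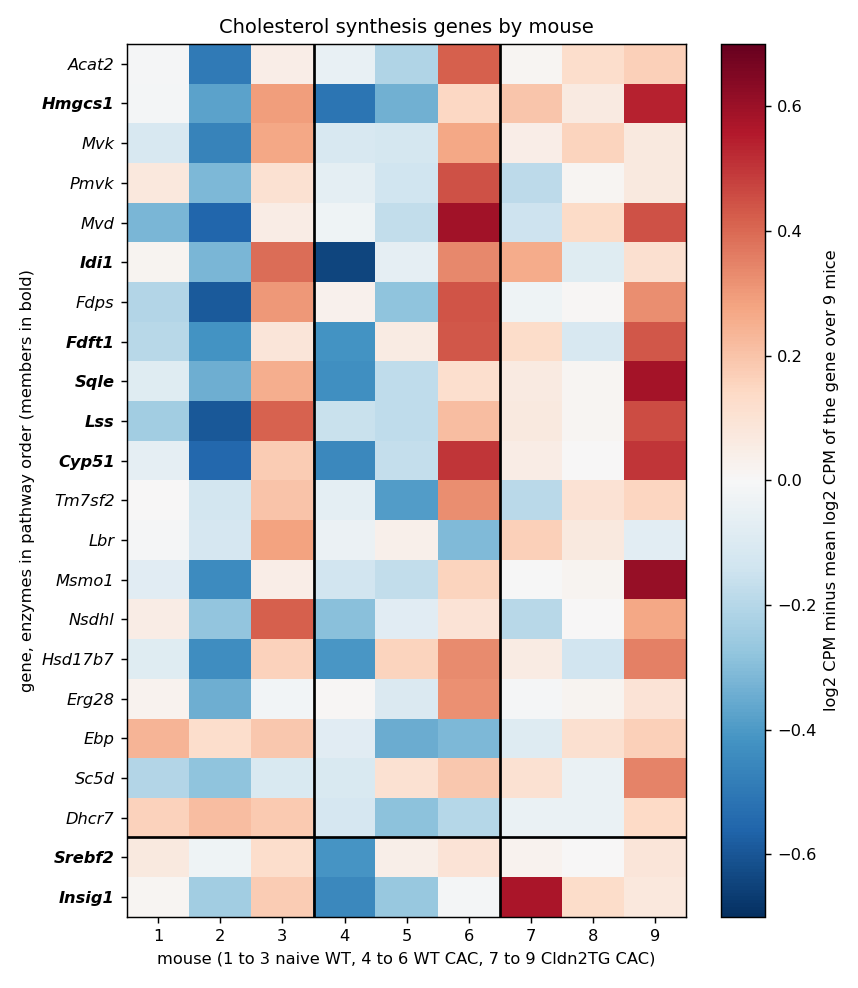
Colour gives log2 CPM minus the gene's mean log2 CPM over the 9 mice, for 20 enzymes of the pathway in order, then Srebf2 and Insig1 (rows, members in bold) in each mouse (columns, groups parted by black lines). Most rows are low in mouse 2 and high in mice 3, 6 and 9, while Ebp, Dhcr7 and Lbr do not follow this order. Mouse 4 is low in most member rows but near the middle in several rows of other enzymes.

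Of 10864 other genes with a mean of at least 5 CPM, those whose log2 CPM followed the mean of the members most closely over the 9 mice included Tmed2 (r = 0.949), Aacs (0.930), Psmb7 (0.916), Serbp1 (0.895), Psmc6 (0.892), Hsd17b7 (0.888), Ssr3 (0.885), Naa15 (0.879) and Uso1 (0.875). Hsd17b7, which reduces 3-ketosterols late in the pathway, stands on the list of other pathway enzymes. The 16 other enzymes of cholesterol synthesis had a median r of 0.66 with the mean of the members, beside 0.07 over all genes, and 2.34% of all genes reached that value. They ranged from 0.89 for Hsd17b7 to 0.08 for Ebp, with Msmo1 at 0.78 and Dhcr7, which acts at the end of the pathway, at 0.12. The genes most like Srebf2 alone were one listed only as ENSMUSG00000051412 (r = 0.935), Cpsf2 (0.921) and Lrp12 (0.918). These correlations are descriptions over 9 mice whose libraries also differ in depth and in marker sums.

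Among the 16 other enzymes of cholesterol synthesis, 1 was called. Dhcr7, the final reductase of the pathway, was at 199, 207 and 202 CPM in naive WT mice and at 164, 146 and 155 CPM in WT CAC mice. The groups did not overlap and Dhcr7 fell by 0.36 on the log2 scale in WT CAC versus naive WT (SE 0.10, adjusted p = 0.0483, edgeR), where 6.92% of genes were called lower. The call was lost on leaving out any mouse except WT CAC mouse 4, with adjusted p from 0.0971 to 0.160. It was also lost under limma voom, RLE and upper-quartile scaling, without a filter, with at least 10 counts per mouse and with lane 2 alone. It held under DESeq2, library size alone, the fit over all 9 mice and lane 1 alone. In both other comparisons 0 of 16 were called. Msmo1, the most abundant of the list by CPM, had log2 fold changes of 0.26 ± 0.19, 0.13 ± 0.16 and 0.38 ± 0.19, for Cldn2TG CAC versus WT CAC, WT CAC versus naive WT and Cldn2TG CAC versus naive WT.

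The genes that process and control SREBPs gave 0 calls among 9 tested in each comparison, beside 9.54%, 15.0% and 10.0% of all genes in Cldn2TG CAC versus WT CAC, WT CAC versus naive WT and Cldn2TG CAC versus naive WT. Srebf1, which encodes SREBP-1, had log2 fold changes between -0.39 and 0.33. Of the 7 tested targets of SREBP-2 outside synthesis, 1 was called in WT CAC versus naive WT (15.0% of all genes were called, 6.92% lower) and 0 in the other comparisons. Stard4, a sterol carrier, was at 224, 242 and 242 CPM in naive WT mice and at 162, 186 and 187 CPM in WT CAC mice. It fell by 0.38 on the log2 scale (SE 0.11, adjusted p = 0.0496, edgeR), and the call was lost on leaving out any 1 of the 6 mice, with adjusted p from 0.0536 to 0.152.

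Fatty acid synthesis, controlled mainly by SREBP-1, contained genes that separated WT CAC mice from the other groups. The summed colonocyte markers were likewise lowest in WT CAC mice (3550.3 to 6614 CPM, against 7070.1 to 10404 CPM in naive WT and 8624 to 10935 CPM in Cldn2TG CAC mice), with 3 of 8, Aqp8, Car4 and Slc26a2, called lower in WT CAC versus naive WT (6.92% of all genes) and higher in Cldn2TG CAC versus WT CAC (2.19%), and their part was not tested. Acly, which makes cytosolic acetyl-CoA from citrate, was at 536, 542 and 575 CPM in naive WT mice, at 352, 299 and 296 CPM in WT CAC mice and at 502, 599 and 579.5 CPM in Cldn2TG CAC mice. WT CAC mice were low and the other groups overlapped. Acly fell by 0.78 on the log2 scale in WT CAC versus naive WT (SE 0.12, adjusted p = 0.0104, edgeR) and was higher by 0.80 ± 0.14 in Cldn2TG CAC versus WT CAC (adjusted p = 0.0118), the comparisons sharing the WT CAC mice. Acss2, which makes acetyl-CoA from acetate, was at 222 to 227 CPM in naive WT, 90.3 to 142 CPM in WT CAC and 206 to 232 CPM in Cldn2TG CAC mice. Its log2 fold changes were -0.97 ± 0.17 in WT CAC versus naive WT (adjusted p = 0.0141, edgeR) and 0.95 ± 0.17 in Cldn2TG CAC versus WT CAC (adjusted p = 0.0145).

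Of the 14 genes of this list tested in WT CAC versus naive WT, 4 were lower (6.92% of all genes were) and 0 higher (8.04%). Besides Acly and Acss2 these were Fads2, a desaturase, which fell by 1.24, and Gpam, an acyltransferase of glycerolipid synthesis, which fell by 1.11 on the log2 scale (adjusted p = 0.0139 and 0.0116, edgeR). In Cldn2TG CAC versus WT CAC, 2 of 13 were higher (2.19% of all genes) and 1 was lower (7.35%). The lower gene was Me1, malic enzyme, at 5.84, 21.3 and 22.8 CPM in WT CAC and 2.62, 4.41 and 1.92 CPM in Cldn2TG CAC mice, with a log2 fold change of -2.48 ± 0.55 (adjusted p = 0.0333, edgeR). The call of Me1 was lost on leaving out any mouse except WT CAC mouse 4, with adjusted p from 0.0778 to 0.131 by edgeR. It was also lost under limma voom and without a filter on low counts. In Cldn2TG CAC versus naive WT, 0 of 14 were higher (3.92% of all genes) and 1 was lower (6.07%), Fads2, with a log2 fold change of -0.56 ± 0.15 (adjusted p = 0.0476, edgeR). This call was lost on leaving out any mouse except Cldn2TG CAC mouse 7, and in the fit over all 9 mice.

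**Figure D4:**
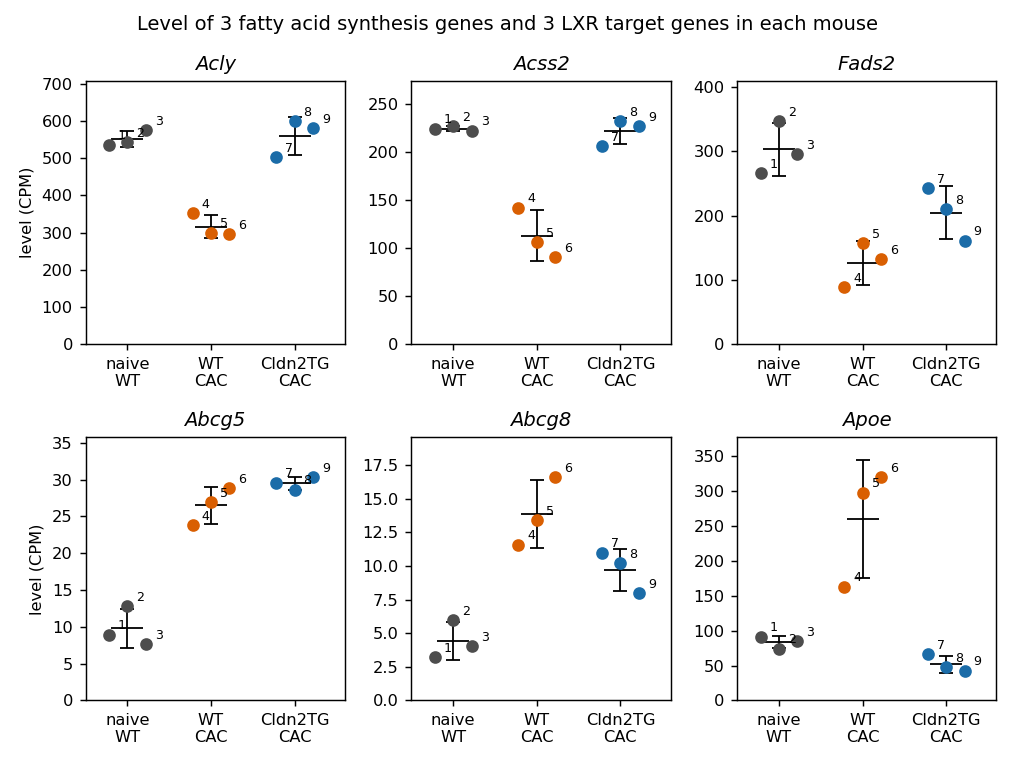
Level in CPM (y axis, from 0) of Acly, Acss2 and Fads2 of fatty acid synthesis and of Abcg5, Abcg8 and Apoe among LXR targets, by group (x axis). Points are mice, labelled 1 to 9, and black bars are the group mean with its SD (n = 3). Acly and Acss2 are low in WT CAC mice only, Abcg5 and Abcg8 are lowest in naive WT mice, and Apoe is highest in WT CAC mice.

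LXR nuclear receptors sense oxysterols and drive sterol export. Abcg5 and Abcg8, which form a sterol exporter of the apical membrane, were the listed genes higher in both treated groups. Abcg5 was at 8.91, 12.8 and 7.6 CPM in naive WT mice, at 23.8, 26.9 and 28.8 CPM in WT CAC mice and at 29.6, 28.6 and 30.3 CPM in Cldn2TG CAC mice. Its log2 fold change versus naive WT was 1.46 ± 0.21 in WT CAC (adjusted p = 0.00839, edgeR) and 1.60 ± 0.18 in Cldn2TG CAC (adjusted p = 0.00115), and it held on leaving out any 1 mouse. Abcg8 was at 3.23, 5.98 and 4.04 CPM in naive WT mice, 11.6 to 16.6 CPM in WT CAC and 7.98 to 11.0 CPM in Cldn2TG CAC mice, with log2 fold changes of 1.67 ± 0.27 (adjusted p = 0.0119) and 1.15 ± 0.24 (adjusted p = 0.0157) by the same test. Without naive WT mouse 3 the adjusted p of Abcg8 was 0.0553 and 0.0641, and without Cldn2TG CAC mouse 8 it was 0.0637 in the latter.

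Apoe, an apolipoprotein made by macrophages among other cells, was at 91.1, 74.1 and 85.0 CPM in naive WT mice, at 163, 298 and 319.9 CPM in WT CAC mice and at 65.9, 47.5 and 42.6 CPM in Cldn2TG CAC mice. No groups overlapped. Its log2 fold change was -2.34 ± 0.28 in Cldn2TG CAC versus WT CAC (adjusted p = 0.00769, edgeR), 1.67 ± 0.25 in WT CAC versus naive WT (adjusted p = 0.0104) and -0.67 ± 0.16 in Cldn2TG CAC versus naive WT (adjusted p = 0.0294). The summed leukocyte markers were ordered in the same way between WT CAC and the other groups, and their part was not tested. Of the 12 genes of this list, 0 were higher and 1 lower in Cldn2TG CAC versus WT CAC (2.19% and 7.35% of all genes). In WT CAC versus naive WT 4 were higher and 0 lower (8.04% and 6.92%), and in Cldn2TG CAC versus naive WT 2 were higher and 1 lower (3.92% and 6.07%). The fourth gene higher in WT CAC was Soat2, a cholesterol acyltransferase, at 1.73 to 2.74 CPM against 0.452 to 1.13 CPM in naive WT mice.

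Of 5 tested enzymes that make oxysterols and steroids, 2 were higher and 1 lower in WT CAC versus naive WT (8.04% and 6.92% of all genes). Cyp27a1, the sterol 27-hydroxylase, had a log2 fold change of 1.30 ± 0.25 (adjusted p = 0.0185, edgeR), and Cyp7b1, an oxysterol hydroxylase found at under 2 CPM in all mice, of 1.82 ± 0.49 (adjusted p = 0.0453). Hsd3b1, a steroid dehydrogenase, fell by 2.26 (adjusted p = 0.0211, edgeR) in WT CAC and by 1.17 (adjusted p = 0.0422) in Cldn2TG CAC on the log2 scale versus naive WT, at 2.04 CPM or less in all mice. The call of Hsd3b1 in Cldn2TG CAC was lost on leaving out any 1 of the 6 mice, with adjusted p from 0.0762 to 0.158, and under DESeq2, in the fit over all 9 mice and with either lane alone. No gene of this list was called in Cldn2TG CAC versus WT CAC, where Cyp27a1 was at -0.73 ± 0.22 (adjusted p = 0.0717, edgeR). Of the 11 genes of the isoprenoid branches, 3 were lower in WT CAC versus naive WT (6.92% of all genes): Pdss1 (log2 fold change -0.68) and Pdss2 (-0.62), which make the side chain of ubiquinone, and Fntb (-0.46), a subunit of protein farnesyltransferase. None was called in the other comparisons, where Nus1, the most abundant by CPM, was at -0.09 ± 0.17 in Cldn2TG CAC versus WT CAC and 0.18 ± 0.12 in Cldn2TG CAC versus naive WT.

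Many calls outside the members were lost when 1 mouse was left out, as were calls over all genes. The fold changes of the called genes of the lists, markers aside, kept their direction, and direction was not followed over all genes. In Cldn2TG CAC versus WT CAC the calls over all genes went from 1421 to 58 without mouse 8 and 108 without mouse 9, and in WT CAC versus naive WT from 2310 to 135 without mouse 2. Without WT CAC mouse 4 they rose instead, to 2894 and 4080 in the same comparisons, while 0 of 8 members were called in either. Over the fits of Cldn2TG CAC versus WT CAC with 1 mouse left out, the log2 fold change ranged from -2.58 to -2.14 for Apoe, 0.75 to 0.90 for Acly and 0.83 to 1.17 for Acss2. Outside the members and the markers, 4 listed genes were called in Cldn2TG CAC versus WT CAC (Acly, Acss2, Me1 and Apoe). Of these, 0 remained without mouse 8 and 0 without mouse 9, where Apoe had an adjusted p of 0.0520 and 0.0506 by edgeR. In the same comparison 2 remained without mouse 5, 3 without mouse 6, 3 without mouse 7 and 4 without mouse 4. Of the 16 called in WT CAC versus naive WT, 7 remained without mouse 1, 2 without mouse 2 (Abcg5 and Abcg8), 3 without mouse 3 (Abcg5, Apoe and Fads2), 15 without mouse 4, 9 without mouse 5 and 9 without mouse 6. Of the 5 called in Cldn2TG CAC versus naive WT, 2 remained without mouse 1, 3 without mouse 2, 1 without mouse 3, 4 without mouse 7, 1 without mouse 8 and 2 without mouse 9.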

How the data were processed

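The authors' methods name TopHat2 for alignment and featureCounts of the Subread package for counting, whereas their processing notes list HISAT2 with featureCounts and GRCm38; versions and strand setting are not given in the sources used here. The deposited file holds raw read counts per gene for 2 lanes of each of 9 libraries. Lanes were summed, so that the mouse was the replicate (3 per group), and p-values measure the spread between these mice. Genes were filtered with filterByExpr (minimum count 10, total 15), scaled with TMM and compared by the robust quasi-likelihood test of edgeR 4.0.16 (R 4.3.3) within each pair of groups, with Benjamini-Hochberg adjustment over all genes tested. DESeq2 1.42.0 and limma 3.58.1 served as alternatives, and the fits were tested on simulated data. Exact permutation tests were 2-sided. CPM values are TMM-scaled over the 9 mice, and log2 CPM used a prior count of 2. Symbols and coordinates came from the table and GENCODE M21. One symbol of the SREBP processing list, Spring, was not analysed here. All 8 members are given in every comparison; of each list, the called genes with the largest changes (up to 4) or, with none, the most abundant are named, and Ebp and Lbr were added after their values were seen. Some genes that this rule names are not reported here. The members and lists were chosen with earlier results of these data known.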

Additional observations from a re-analysis of the deposited data

How the results depend on the processing

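The count of 0 members called held in all 3 comparisons under DESeq2, limma voom, RLE and upper-quartile scaling, library size alone, a fit over all 9 mice, either lane alone, a filter of at least 10 counts per mouse throughout and each left-out mouse. It became 2 in Cldn2TG CAC versus WT CAC at an unadjusted p under 0.05, and 2 in Cldn2TG CAC versus naive WT without a filter. Library size alone moved the median log2 fold change of all genes to -0.093 in Cldn2TG CAC versus WT CAC and -0.111 in Cldn2TG CAC versus naive WT. Under it the log2 fold change reversed for Srebf2 (-0.01) and Fdft1 (-0.03) in the former and Idi1 (-0.07) in the latter, where lane 2 alone also gave Idi1 -0.03. With 1 mouse left out, log2 fold changes in Cldn2TG CAC versus WT CAC ranged from -0.04 to 0.20 for Srebf2, -0.06 to 0.42 for Idi1, -0.10 to 0.33 for Fdft1 and -0.02 to 0.50 for Cyp51. In WT CAC versus naive WT they ranged from -0.20 to 0.03 for Srebf2, -0.36 to 0.11 for Idi1, -0.24 to 0.07 for Sqle, -0.13 to 0.39 for Lss and -0.17 to 0.35 for Cyp51, and in Cldn2TG CAC versus naive WT from -0.05 to 0.02 for Srebf2 and -0.11 to 0.24 for Idi1.

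The number of listed genes called, outside the members and the marker lists, was 4 in Cldn2TG CAC versus WT CAC. It was 8 with DESeq2, 2 with a log2 fold change of at least 1, 17 at an unadjusted p under 0.05 and 0 to 10 with 1 mouse left out. In WT CAC versus naive WT it was 16, and 10 with the filter of at least 10 counts per mouse, 9 with a log2 fold change of at least 1, 29 at an unadjusted p and 2 to 25 with 1 mouse left out. In Cldn2TG CAC versus naive WT it was 5, and 14 without a filter, 2 in a fit over all 9 mice, 3 with lane 2 alone, 3 with a log2 fold change of at least 1, 14 at an unadjusted p and 1 to 6 with 1 mouse left out. For single genes, 646 log2 fold changes kept their direction and call over the alternatives, 110 of listed genes lost the call in the same direction, 2 of members gained it and 21 of members, all among those above, reversed. The cause of these changes was not tested, apart from the fewer genes or mice that an alternative holds by construction. Of the 10 genes most like the members, 10 stayed with a minimum mean of 1 CPM and 5 by Spearman's rho. The sterol element without its last letter, added after seeing the data, was found in 2 members in place of 1. No paired analysis was possible because the mice carry different numbers in each group. With 3 mice per group the 95% intervals include changes of the members of up to 1.89-fold.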
